A study of Mus musculus with 28 samples.

Results

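The genes followed here belong to the excitatory postsynaptic density: Arc, Homer1, Homer2, Homer3, Shank1, Shank2, Shank3, Dlgap1, Dlgap2 and Dlgap3. They were taken by gene name from the authors' tables of nascent transcription, and made up 10 of the 22919 genes listed there. All 10 had a test in each comparison. The postsynaptic density is the protein mesh under the membrane of an excitatory synapse. In it, proteins of the DLGAP family link the membrane scaffold PSD-95 to SHANK proteins, and SHANK proteins bind HOMER proteins, which hold metabotropic glutamate receptors and inositol trisphosphate receptors. ARC is no fixed part of that mesh: it is made anew after neuronal activity and takes part in the removal of AMPA receptors from the synapse by endocytosis, and the Homer1 gene also gives a short activity-induced product, Homer1a, that lacks the coiled coil of the long forms.

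The study asked how nascent transcription responds to raised or silenced network activity when Rai1, a gene for a nuclear chromatin-binding protein, is targeted. Cells came from cortices and hippocampi of CD1 mouse embryos at embryonic day 18, pooled over several embryos of both sexes, and the labels name neurons, astrocytes and oligodendrocyte precursor cells. On day in vitro 14 the cultures were infected with a lentivirus for an shRNA, either a control (shCtrl) or one against Rai1 (shRai1), so that all groups carry a virus and no uninfected group was measured. On day 17 they were kept for 4 hours in 1 µM tetrodotoxin (TTX, which blocks voltage-gated sodium channels), in 20 µM bicuculline methiodide (BIC, which blocks GABA-A receptors and so raises activity) or in water as vehicle. Bromouridine at 2 mM was present for the last 20 minutes, and RNA that had taken it up was captured and sequenced (Bru-seq), so that a value reports RNA made in that window and not the stock of mRNA. The 16 nascent RNA libraries formed 6 groups: shCtrl with vehicle (2), TTX (3) or BIC (2), and shRai1 with vehicle (3), TTX (3) or BIC (3). By their titles, shCtrl vehicle holds replicates 1 and 2, and shCtrl BIC holds replicates 2 and 3. Whether a replicate number marks a shared preparation was not tested.

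The values were the authors' summaries over each group, so no single library can be shown, and the depth of a library is unknown. A log2 change is given with its standard error (SE) from the authors' DESeq2 fit over all 6 groups, which carries the spread between cultures, and a change is called at an adjusted p under 0.05. Rai1 itself did not pass in the knockdown in vehicle, with a log2 change of 0.16 (SE 0.073, adjusted p 0.357) in the authors' deposited table. An shRNA acts on finished mRNA, so nascent RNA of Rai1 gives no check of the knockdown, and directions between the arms rest on the labels. Of the cell type markers, the 6 neuronal genes summed to 456 FPKM in shCtrl vehicle in the authors' deposited table, against 258 for 6 astrocyte genes, 131 for 6 oligodendrocyte precursor genes and 21.6 for 6 microglial genes. None of these 24 genes was listed at 0 there, and the lowest was the microglial gene Tmem119 at 0.0763 FPKM in the authors' deposited table.

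The Homer genes are one family with unlike responses, and their promoters are shown first. A link between these sequences and the responses was not tested. Each sequence holds the 250 bases before the gene's first listed start, read 5′ to 3′ on the gene's strand, from RefSeq annotation of GRCm38.p6. Capitals mark TGACGT, the core of the site bound by the activity-regulated factor CREB, searched on both strands.
Homer1: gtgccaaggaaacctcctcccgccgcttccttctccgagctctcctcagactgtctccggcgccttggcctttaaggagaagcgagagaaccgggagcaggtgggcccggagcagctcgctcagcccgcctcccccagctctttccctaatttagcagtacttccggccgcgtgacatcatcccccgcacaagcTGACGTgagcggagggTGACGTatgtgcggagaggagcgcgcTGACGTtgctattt
Homer2: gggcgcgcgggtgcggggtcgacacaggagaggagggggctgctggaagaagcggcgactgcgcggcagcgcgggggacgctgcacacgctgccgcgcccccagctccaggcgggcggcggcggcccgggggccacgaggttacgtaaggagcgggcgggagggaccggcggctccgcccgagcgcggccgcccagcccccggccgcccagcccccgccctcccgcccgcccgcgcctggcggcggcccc
Homer3: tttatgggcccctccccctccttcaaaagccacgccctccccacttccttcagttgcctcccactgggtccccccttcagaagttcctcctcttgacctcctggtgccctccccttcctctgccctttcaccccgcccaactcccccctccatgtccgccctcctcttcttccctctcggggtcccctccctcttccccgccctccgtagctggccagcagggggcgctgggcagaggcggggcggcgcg
They lie at chr13:93303507-93303756 on the plus strand (Homer1), chr7:81706926-81707175 on the minus strand (Homer2) and chr8:70282749-70282998 on the plus strand (Homer3). The Homer1 window holds TGACGT at 3 places, beginning 56, 40 and 14 bases before the start. At least 1 TGACGT was found in 6.47% of the 32851 promoters of this length, and at least 3 in 0.152% of them. The full palindromic site would count as overlapping matches on both strands. The other 8 of 9 windows, which cover Homer1 (a second start), Homer2, Homer3, Shank3, Dlgap1 and Dlgap3, hold none of these letters. None of the 9 windows holds a CArG box, found in 1.47% of all promoters, or a MEF2 site, found in 2.92%. A match is a description of the letters and not evidence of binding. Of the 10 genes, 6 had a promoter entry.

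In the control arm the genes differed in their level of nascent RNA per length over a wide range, and Arc led. Pooled FPKM, 1 value per condition with bounds in the authors' deposited table, was 413 for Arc in shCtrl vehicle (bounds 297 to 530.0). Homer1 followed at 88.4 (66.8 to 110.0) in the authors' deposited table, and Dlgap1, the best-transcribed of the linker genes, at 67.7 (52.0 to 83.5). Shank1 stood at 32.7, Dlgap3 at 29.5, Shank3 at 20.0, Shank2 at 18.5, Homer2 at 17.2 and Dlgap2 at 13.4 FPKM in the authors' deposited table. Homer3 was lowest at 6.13 (3.42 to 8.84) in the authors' deposited table. Between neighbours in this order the bounds were apart for Arc over Homer1, for Dlgap1 over Shank1 and for Dlgap2 over Homer3, and overlapped for the other 6 pairs. The order is that of pooled FPKM, and it was not checked against read counts over each gene's span.

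**Figure D1:**
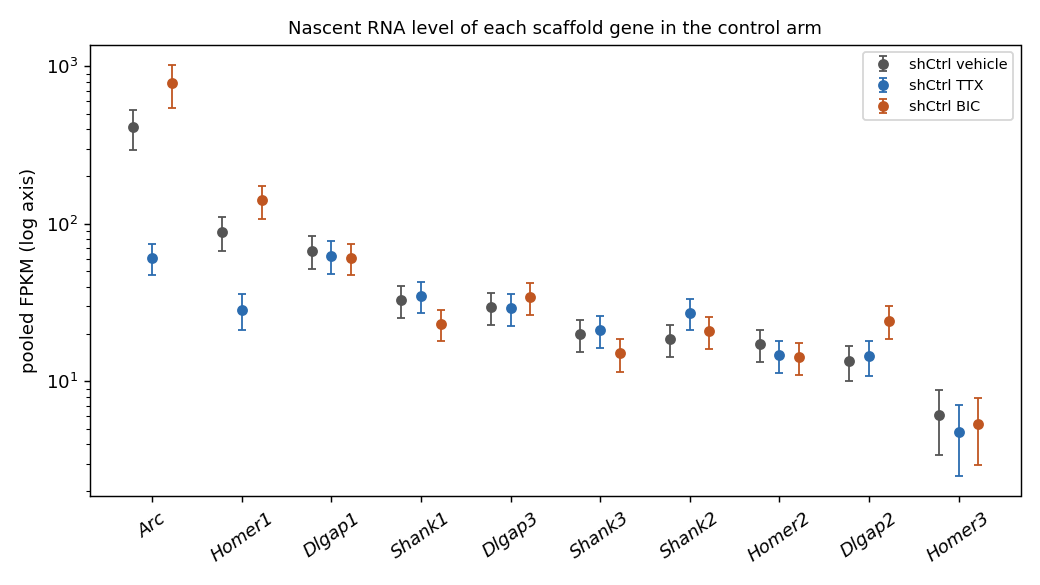
Pooled FPKM of the 10 genes (log axis) in shCtrl with vehicle, TTX or BIC; points are the authors' single value per condition and bars the bounds in the same table. Arc runs from 61.1 in TTX to 783 in BIC, while the values of most other genes lie close together.

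On the mm9 build, which the submitters' processing notes name, the genes range from a few kilobases to most of a megabase. Arc covers chr15:74499511-74503000, a span of 3.49 kb. Homer1 covers chr13:94074450-94175084 and Homer2 chr7:88745367-88851811. Homer3, at chr8:72806898-72826351, shares its listed interval with Ddx49, so its reads could belong in part to that gene. The Shank genes lie at chr7:51565634-51613723 (Shank1), chr7:151361425-151608580 (Shank2) and chr15:89330288-89390691 (Shank3). The Dlgap genes lie at chr17:70774132-71170753 (Dlgap1, 397 kb), chr8:14095875-14847686 (Dlgap2, 752 kb) and chr4:126846515-126914266 (Dlgap3). Apart from Homer3, none of the 10 overlaps another listed gene. Strand was kept in the libraries, per the labels, but how it was counted is not given in the sources used here.

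Under TTX, which silences the network, Arc and Homer1 had the largest falls of the set. In shCtrl, 6 of the 10 genes passed in the authors' deposited table, 4 lower (Arc, Homer1, Homer2, Dlgap1) and 2 higher (Shank2, Dlgap3). Over all genes with an adjusted p there, 26.7% passed, 14.9% lower and 11.8% higher. The median of the 10 log2 changes was -0.23, against -0.01 over the 12333 better-counted genes, those whose mean normalized count reached 50. Bulk RNA cannot tell fewer cells of a type from less RNA per cell.

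The control arm held Arc at 413 FPKM without drug and at 61.1 FPKM with TTX in the authors' deposited table, with bounds apart. Its log2 change there was -2.53 (SE 0.230, adjusted p 5.07e-26) in the authors' deposited table, a fall to 0.173 times the vehicle level. Among the 12333 better-counted genes, 0.154% changed by as much in either direction. In shRai1, Arc fell by 2.00 on the log2 scale (SE 0.209, adjusted p 5.55e-20) in the authors' deposited table.

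Homer1, the long-form scaffold gene with the activity-induced short product, went from 88.4 to 28.4 FPKM in shCtrl in the authors' deposited table, with bounds apart. It fell by 1.80 on the log2 scale (SE 0.072, adjusted p 1.78e-136) in the authors' deposited table, which was the second smallest p of 21192 genes. In shRai1 it fell by 1.30 (SE 0.063, adjusted p 2.79e-91) in the authors' deposited table, at rank 15. These are values of the whole gene, and the short and long products were not separated.

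Homer2, which encodes a constitutive long-form Homer, fell by 0.32 in shCtrl (SE 0.075, adjusted p 0.000176) and by 0.68 in shRai1 (SE 0.065, adjusted p 3.05e-23), per the authors' deposited tables. Homer3, the member with the fewest reads (mean normalized count 111), did not pass in either arm, at -0.30 in shCtrl (adjusted p 0.268) and 0.36 in shRai1 (adjusted p 0.0967), per the authors' deposited tables. So in shCtrl 1 of 3 Homer genes carried a large response to silencing, 1 a small one, and 1 was not resolved. In shRai1 the change of Homer2 was of a size that 6.89% of the better-counted genes reached.

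The Shank genes encode master scaffolds of the deeper layer, and under TTX Shank2 passed in shCtrl, Shank1 in shRai1 and Shank3 in neither arm. Shank2 rose in shCtrl by 0.52 (SE 0.083, adjusted p 9.96e-09) in the authors' deposited table, with 18.5 FPKM without drug and 27.3 with TTX and overlapping bounds. In shRai1 it did not pass, at 0.13 (SE 0.073, adjusted p 0.174) in the authors' deposited table. Shank1 stood at -0.08 in shCtrl (adjusted p 0.578) and fell by 0.37 in shRai1 (SE 0.081, adjusted p 4.22e-05), per the authors' deposited tables. The difference between the arms did not pass for Shank1 (-0.29, adjusted p 0.368, Wald test computed here). Shank3 stood at 0.05 (95% interval -0.12 to 0.21) and -0.11 (-0.26 to 0.03) from the authors' deposited tables.

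Among the Dlgap genes, which encode the linkers between PSD-95 and SHANK, Dlgap1 fell in both arms, by 0.41 in shCtrl (SE 0.096, adjusted p 0.000186) and 0.58 in shRai1 (SE 0.085, adjusted p 2.48e-10), per the authors' deposited tables. Dlgap2 fell in shRai1 by 0.39 (SE 0.071, adjusted p 7.04e-07) and stood at -0.16 (adjusted p 0.125) in shCtrl in the authors' deposited tables. Dlgap3 rose in shCtrl by 0.32 (SE 0.086, adjusted p 0.00171) and stood at 0.11 (adjusted p 0.271) in shRai1 in the authors' deposited tables. Its pooled FPKM in shCtrl did not follow that rise, at 29.5 without drug and 29.3 with TTX in the authors' deposited table, with overlapping bounds. In shRai1 the authors' deposited table had 6 of the 10 genes past the threshold, all lower (Arc, Homer1, Homer2, Shank1, Dlgap1, Dlgap2), with a background of 30.5% over all genes, 16.8% lower. Of the 6 oligodendrocyte precursor markers 4 were lower under TTX in shCtrl and 5 higher in shRai1, and of the 6 neuronal markers 1 was higher and 2 lower in shCtrl and 1 lower in shRai1, per the authors' deposited tables. Of the 6 astrocyte markers 2 were lower in shCtrl, and 2 were higher and 1 lower in shRai1, per the authors' deposited tables. The part of these shifts in the responses was not tested.

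Under BIC, which raises activity, genes of the set passed in both directions. In shCtrl, 8 of the 10 passed in the authors' deposited table: Arc, Homer1, Shank2, Dlgap2 and Dlgap3 were higher, and Homer2, Shank1 and Shank3 lower. The background there was 34.4% of genes, 17.4% higher and 17.0% lower. The shRai1 arm gave the same 8 genes in the same directions in the authors' deposited table, against 42.5% of all genes, 21.3% higher and 21.3% lower. The BIC and TTX comparisons of an arm share their vehicle libraries. Under BIC, 3 of 6 neuronal markers were higher and 2 lower in each arm, per the authors' deposited tables. In shCtrl 2 of 6 astrocyte markers and 1 of 6 precursor markers were lower and 2 of the 3 microglial markers with an adjusted p higher, per the authors' deposited table. In shRai1 1 astrocyte and 1 microglial marker were higher, per the authors' deposited table. The part of these shifts in the BIC responses was not tested.

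**Figure D2:**
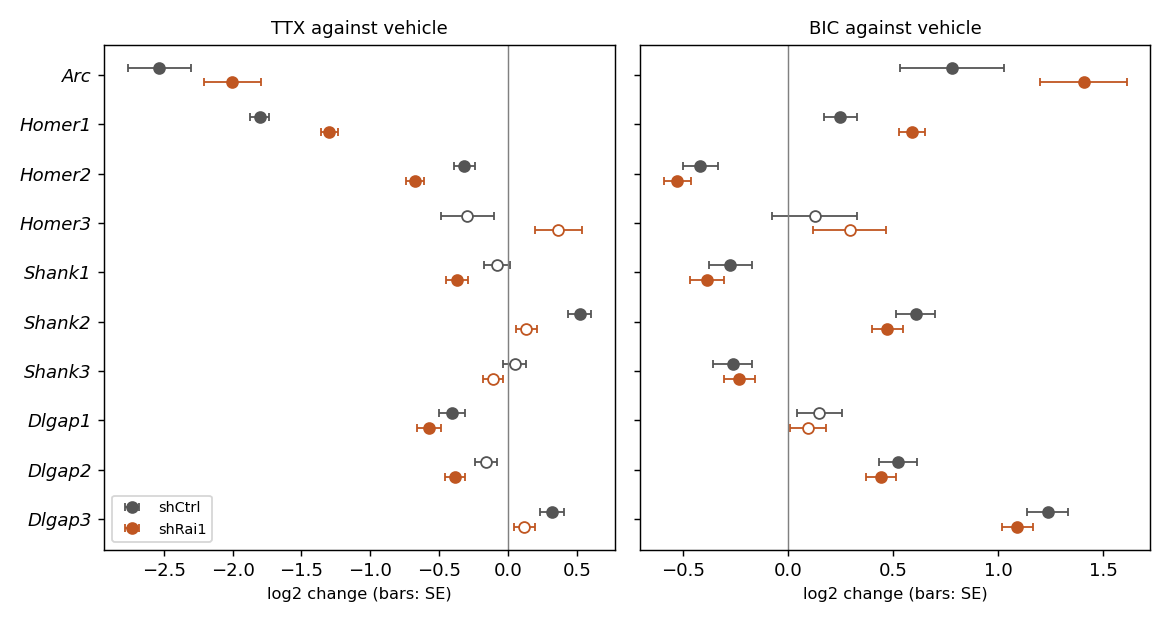
Log2 change (with its SE as bar) of each gene under TTX (left) and BIC (right) against vehicle, in shCtrl (grey) and shRai1 (orange), from the authors' deposited tables; filled points have an adjusted p under 0.05. Arc and Homer1 lie furthest left under TTX, and Dlgap3 is the furthest right under BIC in shCtrl.

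Whether Dlgap3 or Arc had the larger rise under BIC depended on the arm and the table, and the difference between them was not tested. Dlgap3 rose by 1.23 (SE 0.096, adjusted p 7.46e-36) in shCtrl and by 1.09 (SE 0.075, adjusted p 7.36e-46) in shRai1 in the authors' deposited tables. In shCtrl Arc was lower than Dlgap3 by these tables (0.78) and higher in pooled FPKM, with a log2 ratio of 0.92 for Arc and 0.22 for Dlgap3 from the authors' deposited table. Dlgap3 had 29.5 FPKM without drug and 34.4 with BIC, with overlapping bounds, in the authors' deposited table. Dlgap2 rose by 0.52 (SE 0.090, adjusted p 7.54e-08) in shCtrl and 0.44 (SE 0.071, adjusted p 3.46e-09) in shRai1 in the authors' deposited tables. Its FPKM went from 13.4 to 24.3, with bounds apart, in the authors' deposited table. Dlgap1 passed in neither arm, at 0.15 (adjusted p 0.308) and 0.09 (adjusted p 0.406), per the authors' deposited tables.

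Arc rose under BIC by 0.78 in shCtrl (SE 0.249, adjusted p 0.00677) and by 1.41 in shRai1 (SE 0.207, adjusted p 9.99e-11), per the authors' deposited tables. In pooled FPKM it went from 413 to 783 in shCtrl in the authors' deposited table, with bounds apart. Homer1 rose by 0.25 in shCtrl (SE 0.079, adjusted p 0.00677) and by 0.59 in shRai1 (SE 0.062, adjusted p 5.28e-20), per the authors' deposited tables. In shCtrl both changes were smaller in size than those of the same genes under TTX. Homer2 was lower under both drugs: under BIC it fell by 0.42 in shCtrl (SE 0.084, adjusted p 5.43e-06) and 0.53 in shRai1 (SE 0.065, adjusted p 1.11e-14), per the authors' deposited tables. Homer3 did not pass, at 0.13 (adjusted p 0.689) and 0.29 (adjusted p 0.176), per the authors' deposited tables.

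Shank2 was higher under BIC as well, by 0.61 in shCtrl (SE 0.093, adjusted p 1.12e-09) and 0.47 in shRai1 (SE 0.073, adjusted p 9.04e-10), per the authors' deposited tables. Its FPKM under BIC was 20.8, against 18.5 without drug and with overlapping bounds, in the authors' deposited table. Shank1 fell by 0.27 in shCtrl (SE 0.104, adjusted p 0.0267) and 0.39 in shRai1 (SE 0.081, adjusted p 1.10e-05), per the authors' deposited tables. Shank3 fell by 0.26 in shCtrl (SE 0.094, adjusted p 0.0177) and 0.23 in shRai1 (SE 0.074, adjusted p 0.00511), per the authors' deposited tables. The shCtrl falls of Shank1 and Shank3 have the largest adjusted p of these calls. With all changes centred on the median gene their adjusted p was 0.0723 and 0.0564 (Wald test computed here with Benjamini-Hochberg adjustment).

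The drugs were then set against each other within an arm, as the BIC response minus the TTX response, with a Wald test computed here and Benjamini-Hochberg adjustment over 18241 genes. In shCtrl, 5 of the 10 genes were higher in BIC than in TTX and 1 was lower, against 32.4% of all genes, 17.1% higher and 15.3% lower. Arc differed by 3.31 (SE 0.339), which is 9.92 times the TTX level, and Homer1 by 2.05 (SE 0.107), which is 4.15 times. The 3 Dlgap genes were also higher in BIC, by 0.56 (Dlgap1, SE 0.144), 0.69 (Dlgap2, SE 0.121) and 0.92 (Dlgap3, SE 0.129). Shank3 was lower, at -0.31 (SE 0.126, adjusted p 0.0430). In shRai1, 6 of the 10 were higher, the same 5 and Shank2 at 0.34 (SE 0.104, adjusted p 0.00342), against 39.5% of all genes, 20.3% higher. Shank2 differed by 0.09 in shCtrl (95% interval -0.16 to 0.33), so a difference between the drugs was not detectable in that arm. Homer2 did not pass in either arm, at -0.10 (-0.32 to 0.12) in shCtrl and 0.15 (-0.03 to 0.33) in shRai1. By the same test 3 of 6 neuronal markers were higher and 2 lower in each arm. Of the 6 precursor markers 2 were higher in shCtrl and 1 was lower in shRai1. Of the 6 astrocyte markers none passed in shCtrl, and 2 were higher and 2 lower in shRai1. Of the 5 microglial markers with an adjusted p 1 was higher in each arm. The part of these shifts in the drug differences was not tested.

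Between the arms, only the vehicle cultures gave a call among these genes in the deposited comparisons. The knockdown in vehicle lowered Homer1 by 0.40 (SE 0.071, adjusted p 2.69e-05) in the authors' deposited table, whose rows carry no names and were matched here by mean count. It was the single call among the 10 genes, against 0.857% of all genes, 0.730% lower. At an unadjusted p under 0.05, 5 of the 10 passed, against 7.75% of all genes. These were Homer1, Arc at -0.55 (SE 0.229, adjusted p 0.306), Homer3 at -0.44 (SE 0.191, adjusted p 0.325), Homer2 at 0.21 (SE 0.074, adjusted p 0.167) and Shank2 at 0.24 (SE 0.083, adjusted p 0.165) in the authors' deposited table. Shank1, Shank3 and the Dlgap genes lay between 0.02 and 0.12 in the authors' deposited table.

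In TTX none of the 10 passed between the arms with DESeq2, where 0.0283% of all genes did. At an unadjusted p under 0.05 there were 4, all lower in shRai1 (Homer2, Shank1, Shank2, Dlgap2), against 3.30% of all genes at that threshold, 1.94% lower. Their log2 changes ran from -0.19 (Dlgap2) to -0.14 (Homer2) in the authors' deposited table. Homer1 stood at 0.11 (95% interval -0.02 to 0.23) and Arc at -0.02 (-0.43 to 0.40), from the authors' deposited table. In BIC none of the 10 passed with DESeq2, where 0.00944% of all genes did, and none had an unadjusted p under 0.05, as 2.93% of all genes did. The values there ran from -0.28 (Homer3) to 0.11 (Shank2) in the authors' deposited table. The 95% interval of Arc there was -0.37 to 0.53.

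**Figure D3:**
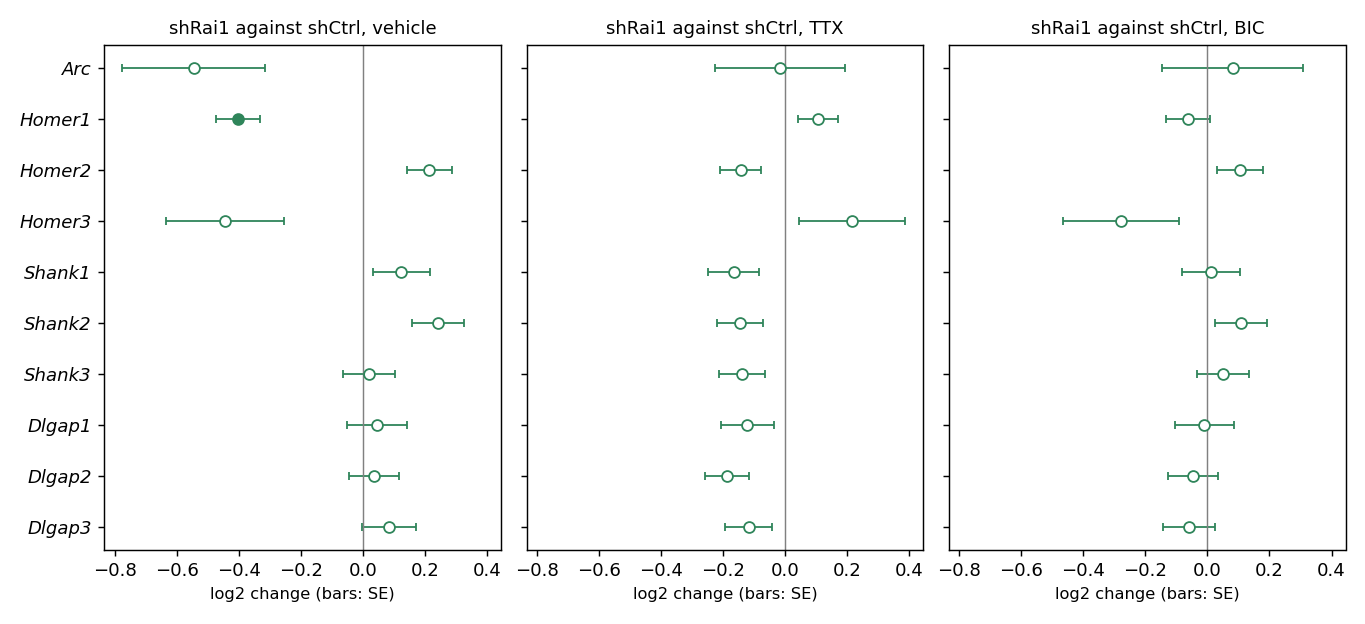
Log2 change (with its SE as bar) of each gene in shRai1 against shCtrl, in vehicle, TTX and BIC, from the authors' deposited tables; the filled point has an adjusted p under 0.05. Homer1 in vehicle, at -0.40, is the one filled point.

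Markers of oligodendrocyte precursor cells moved with the vehicle comparison. Of 6 such genes 4 were called lower in shRai1 vehicle and 1 of the 6 had no adjusted p, with a list median of -0.84, in the authors' deposited table. Of 6 astrocyte markers 1 (Aldoc) was called lower and of 6 neuronal markers 1 (Rbfox3) higher in the authors' deposited table. Over all genes 0.857% were called there, 0.730% lower. The part of these shifts in the Homer1 result was not tested. Between the arms in TTX the precursor list had a median of 0.50, with 1 of 6 (Pdgfra) called higher in shRai1, against 0.0283% of all genes called. In BIC its median was -0.45, with 1 of 6 (Pdgfra) called lower, against 0.00944%, in the authors' deposited tables. In shCtrl the authors' deposited table summed these precursor markers to 131 FPKM without drug, 92.4 with TTX and 109 with BIC.

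Whether an arm changed the response itself was tested as the TTX response of the shRai1 arm less that of the shCtrl arm, computed here from the deposited log2 changes. Of the 10 genes 3 passed (Wald test, Benjamini-Hochberg adjustment), 1 higher and 2 lower, against 0.943% of all genes, 0.587% higher and 0.356% lower. The Homer1 difference was 0.51 (SE 0.095, adjusted p 0.000118), so its fall was smaller in shRai1. For Homer2 the difference was -0.36 (SE 0.099, adjusted p 0.0390), a deeper fall in shRai1. For Shank2 it was -0.39 (SE 0.111, adjusted p 0.0498), and the call was lost with no filter (adjusted p 0.0549) and with centring on the median gene (adjusted p 0.0580), which leaves 2 of the 10. The difference for Arc was 0.53 with a wide error (SE 0.311, adjusted p 0.657), the same size as that of Homer1 but not resolved. Shank1 at -0.29 (adjusted p 0.368), Homer3 at 0.66 (adjusted p 0.274) and Dlgap2 at -0.22 had an unadjusted p under 0.05 but did not pass. With the 3 called genes, 6 of the 10 had an unadjusted p under 0.05, against 9.05% of all genes. The median of the 10 was -0.18, with 7 below 0, against 51.3% of the 12333 better-counted genes below 0. All 6 precursor cell markers were called higher in this difference, with a median of 1.37, and 1 of 6 neuronal markers (Rbfox3) was called lower. The part of these shifts in it was not tested.

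For BIC the same difference passed for none of the 10 genes, where 0.0219% of all genes passed (Wald test), and 1 had an unadjusted p under 0.05, as 3.03% of all genes did. That was Homer1, at 0.34 (SE 0.101, unadjusted p 0.00077, adjusted p 0.647). Arc stood at 0.63 (95% interval -0.01 to 1.26), and the other genes lay between -0.14 and 0.17. The TTX and BIC differences share the vehicle libraries of both arms.

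Group levels make these differences easier to read. They were estimated here from each gene's mean normalized count over the 16 libraries and its deposited log2 changes, and carry no error of their own. For shCtrl, Homer1 came to 13259 without drug, 3797 with TTX and 15752 with BIC, and to 10038, 4085 and 15084 in shRai1. Of its 3 differences between the arms, the one in vehicle was called. Arc came to 4315, 747 and 7407 in shCtrl and to 2957, 739 and 7835 in shRai1, and none of its differences between the arms passed. Homer2 was at 3532, 2831 and 2646 in shCtrl and at 4099, 2564 and 2846 in shRai1, and vehicle was the highest group of each arm. For Shank2 vehicle was the lowest of each arm, at 8414 against 12055 in TTX and 12817 in BIC in shCtrl, and at 9957 against 10903 and 13810 in shRai1. Dlgap3 was at 2728, 3397 and 6420 in shCtrl and at 2893, 3131 and 6161 in shRai1, so that BIC stood out in both arms.

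**Figure D4:**
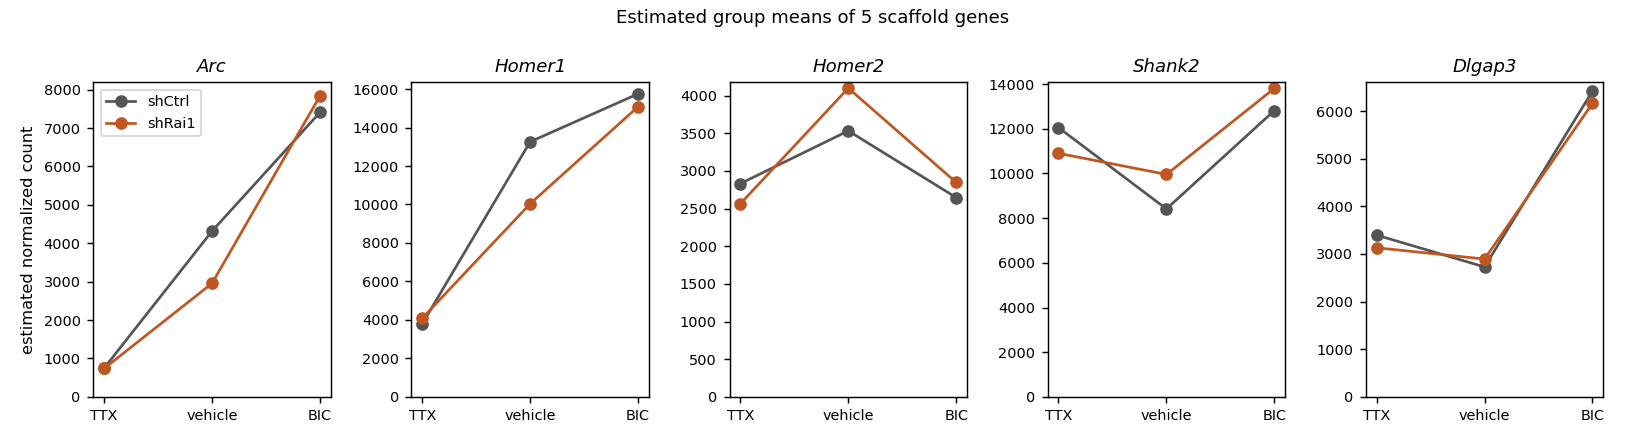
Estimated normalized count of Arc, Homer1, Homer2, Shank2 and Dlgap3 (axes start at 0) in TTX, vehicle and BIC for shCtrl (grey) and shRai1 (orange); lines join the conditions of an arm and there are no error bars. Homer1 is at 13259 in shCtrl vehicle and 10038 in shRai1 vehicle, the one called difference between the arms within a treatment.

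The genes nearest to Arc and Homer1 were sought by the smallest distance over 5 deposited log2 changes (both drugs in both arms, and the knockdown in vehicle) among 12332 other better-counted genes. Nearest to Arc were Fosb (distance 0.371), Rnd3 (0.411) and Fos (0.462). Nearest to Homer1 were Lamp5 (0.197), Dusp5 (0.240) and Junb (0.267). Arc and Homer1 themselves were 1.41 apart. Among the 10 genes the closest pair was Shank1 and Shank3, at 0.346, and the widest was Arc and Shank2, at 3.92. This is a description over 6 conditions that share libraries, with no test.

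Rapid immediate early genes, the transcription factors and phosphatases first induced by activity, gave a scale for Arc and Homer1. All 10 were lower under TTX in shCtrl and all 10 in shRai1 in the authors' deposited tables, with medians of -2.39 and -1.83, against 14.9% and 16.8% of all genes lower. Arc, at -2.53 in shCtrl and -2.00 in shRai1 in the authors' deposited tables, lay near these medians, and Homer1, at -1.80 and -1.30, above them. Under BIC in shCtrl 1 of the 10 was higher (Dusp1, 1.63, SE 0.241) and 4 were lower, led by Egr3 (-1.97, SE 0.215), in the authors' deposited table, against 17.4% of all genes higher and 17.0% lower. In shRai1 the authors' deposited table for BIC had 5 of them higher and 3 lower, against 21.3% of all genes each way. None of the 10 passed in the BIC difference between the arms (Wald test computed here), and all were above 0, as 52.8% of the better-counted genes were, with a median of 0.63. In the knockdown in vehicle 1 of the 10 was called lower (Egr1, -0.54, SE 0.131, adjusted p 0.0126), against 0.730% of all genes, and all 10 lay below 0 with a median of -0.46, in the authors' deposited table, where 51.3% of the better-counted genes lay below 0. In the TTX difference between arms none of the 10 passed (Wald test computed here), and all were above 0, as 48.7% of the better-counted genes were, with a median of 0.48, close to the 0.51 of Homer1 and the 0.53 of Arc. The knockdown in vehicle and both differences share the vehicle libraries of both arms, so these signs are not separate results. The 10 genes also moved together under TTX, so they are not 10 separate observations. Between the arms in TTX their median was -0.003, with 5 of 10 below 0, in the authors' deposited table. In BIC it was 0.17, with 4 below 0, in the authors' deposited table.

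Other scaffolds of the excitatory density, 26 genes such as the PSD-95 family and its binding proteins, gave calls in both directions. Under TTX 4 were higher and 5 lower in shCtrl, where 26.7% of all genes were called, and 3 higher and 9 lower in shRai1, where 30.5% were, in the authors' deposited tables. Iqsec1, an exchange factor for ARF proteins, rose by 0.64 (SE 0.082), and Dlg1, which encodes SAP97, fell by 0.38 (SE 0.088) in shCtrl in the authors' deposited table. Under BIC 8 were higher and 7 lower in shCtrl, against 34.4% of all genes called, and 8 higher and 11 lower in shRai1, against 42.5%, in the authors' deposited tables. Tanc1, a PSD-95-binding scaffold, rose by 1.10 (SE 0.086) and Sipa1l1, which encodes the Rap regulator SPAR, fell by 0.75 (SE 0.075) in shCtrl in the authors' deposited table. None of the 26 passed between the arms in the 3 deposited comparisons, or in the differences between arms in a drug response computed here. The shares over all genes were 0.857% (vehicle), 0.0283% (TTX) and 0.00944% (BIC) in the authors' deposited tables. For the TTX and BIC differences between the arms they were 0.943% and 0.0219%. Dlgap4, another gene of the Dlgap family and picked here after its values were seen, fell by 0.21 under BIC in shCtrl (adjusted p 0.0396) in the authors' deposited table, where Dlgap2 and Dlgap3 rose.

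Binding partners of HOMER and SHANK gave few calls under TTX. Of 10 such genes none passed under TTX in shCtrl with DESeq2, against 26.7% of all genes, and 1 was higher in shRai1 (Trpc1, 0.20, SE 0.077), against 30.5%, in the authors' deposited tables. Under BIC each arm had 4 higher and 4 lower, per the authors' deposited tables, against 34.4% of all genes in shCtrl and 42.5% in shRai1 called in either direction. Dnm3, a dynamin bound by HOMER, rose by 0.47 (SE 0.119) and Agap2, a GTPase gene, fell by 0.48 (SE 0.105) in shCtrl in the authors' deposited table. Of 9 partners of ARC and the endocytic genes around them, 3 were higher and 1 lower under TTX in shCtrl, and 4 were lower under BIC, in the authors' deposited tables. Among these Sh3gl3, an endophilin that ARC binds, rose by 0.51 under TTX (SE 0.105) and fell by 0.61 under BIC (SE 0.123) in shCtrl in the authors' deposited tables, opposite in sign to Arc at both drugs.

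Scaffolds of the inhibitory synapse, 7 genes, gave 4 higher and 1 lower under BIC in each arm, per the authors' deposited tables. Shisa7, an auxiliary protein of GABA-A receptors, fell by 1.14 (SE 0.136) and Dmd, the dystrophin gene, rose by 0.97 (SE 0.117) in shCtrl in the authors' deposited table. Shisa7 was the 1 lower call of the list under BIC in each arm. The shares over all genes under BIC were 17.4% higher and 17.0% lower in shCtrl and 21.3% each way in shRai1. Under TTX 2 of the 7 genes were higher and 1 lower in shCtrl, where 26.7% of all genes were called. In shRai1 2 were lower under TTX, where 30.5% of all genes were called, per the authors' deposited tables.

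Both kinds of deposited table were compared for the 10 genes in shCtrl, since a change can be read from either. The log2 ratio of pooled FPKM had the same sign as the deposited log2 change for 7 of the 10 under TTX and 8 of the 10 under BIC. Opposite signs occurred under TTX for Shank1 (0.09 in FPKM, -0.08 deposited), Dlgap2 (0.10 and -0.16) and Dlgap3 (-0.01 and 0.32), and under BIC for Homer3 (-0.19 and 0.13) and Dlgap1 (-0.15 and 0.15). Of these 5 only the Dlgap3 rise was called in the authors' deposited table. The widest gap was that of Dlgap3 under BIC, 0.22 in FPKM and 1.23 in the authors' deposited table, a gap that 2.44% of 12271 genes reached. Shank2 under BIC came to 0.17 in FPKM against 0.61, and Homer1 to 0.68 in FPKM against 0.25, in the authors' deposited table. The median absolute gap over all such genes was 0.199 under BIC and 0.139 under TTX. Bounds of drug and vehicle were apart for Arc and Homer1 under TTX and for Arc and Dlgap2 under BIC. The cause of the gaps was not tested.

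**Figure D5:**
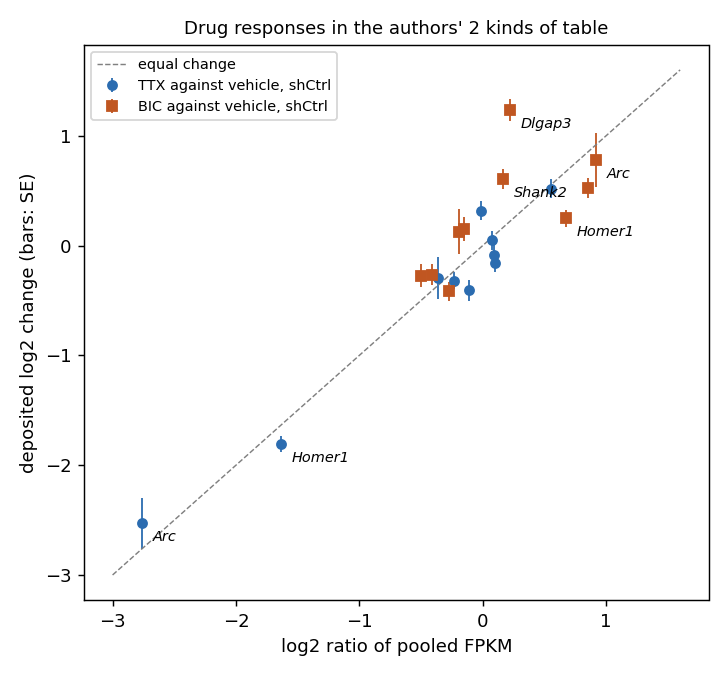
Deposited log2 change (with its SE as bar) against the log2 ratio of pooled FPKM for the 10 genes in shCtrl, under TTX (blue circles) and BIC (orange squares); the dashed line marks equal change. Arc and Homer1 under TTX lie near the line, and Dlgap3 under BIC lies furthest above it, at 1.23 against 0.22.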

How the data were processed

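Nascent RNA (Bru-seq) of 16 mouse culture libraries in 6 groups was read from the authors' summaries; 12 ChIP-seq samples were not analysed here. The labels describe 2 or 3 biological replicates per group, so p-values measure the spread between these cultures. The submitters' processing notes name mm9, TopHat2 2.1.0, Bowtie2 2.2.6 and DESeq2, with no role or order.

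Each of the 7 deposited comparison tables lists, per the file headers, a mean normalized count (a signal the authors scaled and averaged over libraries), a log2 change, its SE, a Wald score deposited by the authors, and a p-value and adjusted p-value the authors deposited, for 22919 genes, of which 21192 had a test. Per the file headers, each condition has a single FPKM with bounds, which the authors pooled over libraries. Its knockdown columns entered only the mean over 6 conditions used as a filter, since their treatment names went against the knockdown comparisons. One comparison (knockdown in vehicle) was deposited without gene names; 20107 genes, with all 10 studied here among them, were named by a mean count shared with the other tables and unique.

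Computed here (Python 3.11.15, pandas 2.3.3, numpy 2.4.6, scipy 1.17.1, matplotlib 3.10.9): the difference between arms in a drug response, with the SE as the root of summed squared errors; BIC against TTX within an arm, whose SE is an upper bound because vehicle libraries are shared; two-sided Wald tests with Benjamini-Hochberg adjustment over 18241 named genes averaging 0.1 FPKM or more; and 95% intervals from the SE. The script was tested on simulated data. Estimated group levels assume that the mean normalized count averages the 16 libraries.

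The 10 genes, the gene lists and the tests were chosen with earlier results of these data known. Genes named besides the 10 were Rai1, the nearest 3 in pattern to Arc and Homer1, and the largest called rises and falls of each list; immediate early genes and cell type markers could all be named. One gene that this rule would name is not reported here. Alternatives were thresholds of 0.01 and 0.1, no filter, a mean of at least 0.5 FPKM, centring on the median gene, other error formulas, and, for the FPKM log2 ratios (printed with no pseudocount), a pseudocount of 1 or the deposited change in their place.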

Additional observations from a re-analysis of the deposited data

Results flagged for a closer look

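The TTX response differed between the arms for 3 of the 10 genes, by the test of the difference itself (Wald test computed here, Benjamini-Hochberg adjustment). Response in shRai1 minus response in shCtrl was 0.51 for Homer1, -0.36 for Homer2 and -0.39 for Shank2 on the log2 scale. All 3 also had an unadjusted p under 0.05 in the vehicle comparison of the arms, which shares libraries with this difference. In the TTX comparison of the arms, which shares them too, Homer2 and Shank2 also had an unadjusted p under 0.05, both at -0.14 in the authors' deposited table and opposite in sign to vehicle, and Homer1 did not. Their estimated levels were further apart between the arms in vehicle than in TTX.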

How the results depend on the processing

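At a threshold of 0.01 the count of genes whose TTX response differed between the arms went from 3 to 1, leaving Homer1. The Shank2 difference also missed 0.05 with no filter (adjusted p 0.0549) and with centring on the median gene (0.0580). Of 590 single-gene values of the comparisons under other thresholds, filters, centring and error formulas, 579 kept direction and side of the threshold, 9 lost the call, 2 gained it and 0 reversed. The gains were Homer3 under TTX in shRai1 at a threshold of 0.1, and Homer2 in BIC against TTX in shRai1 without the shared vehicle part of the error (adjusted p 0.0424). No scaling moved the median gene by over 0.1. The deposited change lay outside the range given by the drug's FPKM bounds for Homer1, Shank2, Dlgap1 and Dlgap3 under BIC and for Dlgap3 under TTX. Its sign was opposite to the FPKM ratio for Shank1, Dlgap2 and Dlgap3 under TTX and for Homer3 and Dlgap1 under BIC, all with overlapping bounds, and the cause was not tested. No paired analysis was possible because only summaries per comparison were used, without values per library; leaving out a replicate was not run for the same reason. Of the groups, 2 held 2 libraries each, and library depth is unknown.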
